A study of Mus musculus with 203 samples.

Results

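The airway response to house dust mite (HDM) extract in mice treated with the glucocorticoid dexamethasone (DEX) was measured by bulk RNA-seq in 20 libraries, of the 80 airway libraries taken at week 11. These are the 10 airway libraries titled HDM.AIR.DEX and the 10 titled PBS.AIR.DEX at week 11, chosen by their titles alone. All came from female Balb/C mice aged 18 to 20 weeks. The labels name HDM as intranasal and give 2 schedules without tying them to titles. The week 11 mice are taken here as those given HDM 3 times per week from week 4 to week 11, and whether they also received it before week 4 is not stated. PBS.AIR.DEX mice received phosphate buffered saline (PBS) in place of the extract. Both groups breathed normal air (AIR), in contrast to the cigarette smoke (CS) of other groups, and both were given DEX during week 11, so the steroid is shared and the allergen is what differs. The same contrast in the airways of mice without DEX (10 HDM.AIR and 10 PBS.AIR libraries) served as the comparison, and 20 smoke-exposed airway libraries and 20 parenchyma libraries, all with DEX, served to place it further.

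Repeated inhalation of HDM sensitises mice to the mite's allergens, and the airways fill with eosinophils, neutrophils, lymphocytes and macrophages while the epithelium secretes mucus and B cells switch their antibody class. Glucocorticoids such as DEX bind the glucocorticoid receptor, which raises the transcription of genes such as Fkbp5 and Tsc22d3 and restrains that of many cytokine genes, and they are the mainstay of asthma treatment. Steroid-resistant forms of airway disease often hold neutrophils and interleukin-17 (IL-17) producing T cells, and which parts of an allergen response survive a steroid is the question that this contrast addresses.

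The sources used here give neither the dose of DEX nor whether each library is a separate mouse, and the airways were separated from the parenchyma by dissection, so adjoining tissue could be carried over. The p-values below therefore measure the spread between these libraries. In bulk tissue, fewer cells of a type and less RNA per cell cannot be told apart. Levels are CPM, which are counts scaled to the same library total, after TMM normalisation, and changes are log2 fold changes (log2FC) from limma-voom with Benjamini-Hochberg adjusted p-values over all 18015 genes tested. A call needed an adjusted p-value under 0.05 and a log2FC of 1 or more in either direction.

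Total counts were similar in both groups, from 24200016 to 32262655 in HDM.AIR.DEX libraries and from 22638626 to 37103574 in PBS.AIR.DEX libraries. In a principal component analysis of the 500 most variable genes, of which 35.6% were immunoglobulin genes, the first component held 65% of the variance and separated the groups without overlap (HDM.AIR.DEX from 23.8 to 58.2, PBS.AIR.DEX from -45.2 to -15.6). With the 20 libraries without DEX added, HDM.AIR.DEX libraries scored 12.5 to 48.7 on the first component, mostly below HDM.AIR libraries (46.9 to 63.9) and above both PBS groups (PBS.AIR.DEX -53.8 to -24.2, PBS.AIR -44.4 to -20.6). The markers of the labelled tissue were present in all libraries, with a summed level of 7 club cell genes from 13864 to 42321 CPM in HDM.AIR.DEX libraries and from 46607 to 91672 CPM in PBS.AIR.DEX libraries. Marker genes of neighbouring tissues were present as well, and some were lower and others higher with the allergen. The summed level of 8 cardiac muscle genes ranged from 156.5 to 1767 CPM (median 336.6) in HDM.AIR.DEX and from 385.5 to 3116 CPM (median 1400) in PBS.AIR.DEX libraries, and all 8 were lower with HDM. That of 5 adipose genes ranged from 12.45 to 349.4 CPM (median 60.08) and from 60.57 to 1480 CPM (median 440.6), with 4 of 5 lower. Of 7 markers of alveolar type II cells, which belong to the parenchyma, 5 were higher and none lower, at a summed level from 15853 to 35978 CPM (median 26212) with HDM and from 12112 to 29789 CPM (median 16615) with PBS. With the fold threshold none of these 7 was called. Counts of cell type markers, here and below, are at an adjusted p-value under 0.05 without a fold threshold. At that limit 22.9% of all genes were higher and 24.6% lower with HDM under DEX. The defining genes of T cell precursors in the thymus, Rag1 and Rag2, did not exceed 3 counts in any of the 20 libraries.

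Under DEX, HDM raised 1380 mRNAs (7.66% of those tested) and lowered 1073 (5.96%). These are the shares to set beside the counts of list members called under DEX below. Without the fold threshold, 4123 (22.9%) were higher and 4424 (24.6%) lower, and the median log2FC over all genes was -0.02. All 10 HDM.AIR.DEX libraries lay above all 10 PBS.AIR.DEX libraries for 1185 genes (6.58%) and below them for 509 (2.83%). Without DEX, HDM raised 1865 mRNAs (10.4%) and lowered 1512 (8.39%). The difference between the 2 effects, tested as an interaction term, passed for 561 genes with a lower effect under DEX (3.11%) and for 0.871% of genes with a higher one.

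The number of genes called lower changed when the levels of neighbouring tissues were added to the fit. With the summed cardiac muscle and adipose level of each library as a covariate, an alternative chosen after seeing the data, 502 genes were called lower and 1490 higher, and the difference with and without DEX passed for 864 genes with a lower and 561 with a higher effect under DEX. In that fit none of the smooth muscle genes described further on was called. The covariate was itself lower with HDM, as the medians above show. The fit therefore cannot tell tissue carried over from an effect of HDM on the same genes.

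**Figure D1:**
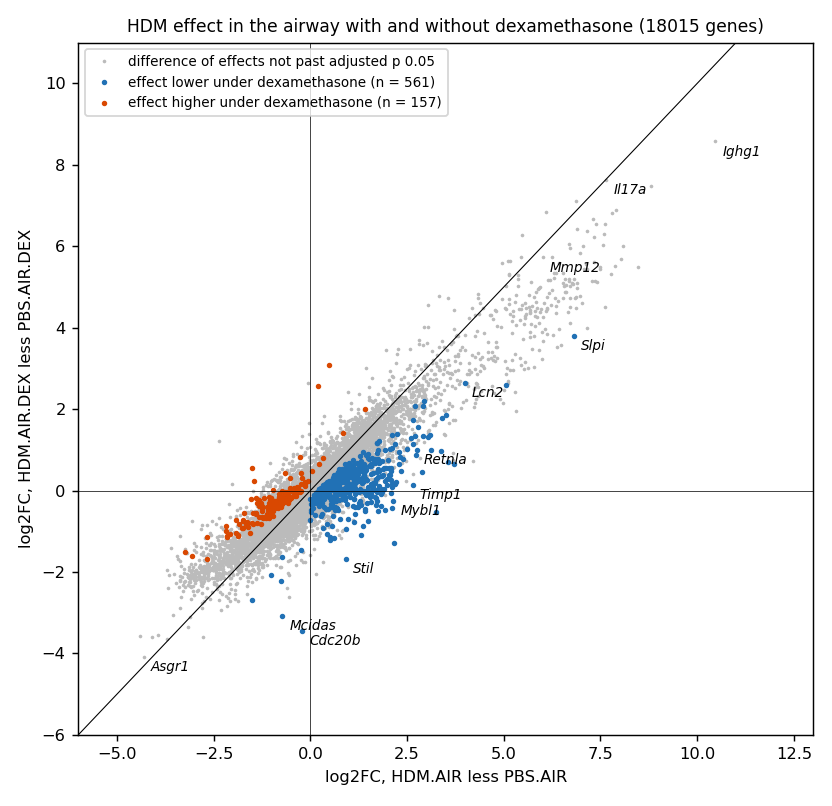
HDM effect (log2FC) of each of the 18015 genes in the airway, without DEX on the horizontal axis and under DEX on the vertical axis, with the line of equal effect. Points in blue (561) had a lower and points in orange (0.871% of genes) a higher effect under DEX at an adjusted p-value under 0.05, and most genes, in grey, lie along the line or somewhat below it where HDM raised them.

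Many mRNAs called without DEX were also called under it. Of the 1865 mRNAs that HDM raised without DEX, 1260 (67.6%) were also called higher under DEX, and these made up 91.3% of the 1380. Of the 1512 lowered mRNAs, 876 (57.9%, or 81.6% of the 1073) were called lower in both, which was 382 (37.8%) with the covariate. Signs were kept more often than calls, with 1811 of the 1865 above 0 and 1502 of the 1512 below 0 under DEX. The median effect of the 1865 was 1.68 without DEX and 1.38 under it, and that of the 1512 was -1.49 and -1.16. These genes were chosen by their effect without DEX, which favours a smaller one under it. Chosen by the effect under DEX instead, the 1380 had medians of 1.82 without DEX and 1.66 under it, and the 1073 of -1.66 and -1.44. Of the 605 raised mRNAs that were no longer called, 268 still passed the adjusted p-value in the same direction, and the difference of the effects itself passed for 32.2% of the 605. For lowered mRNAs 636 were called without DEX only, 416 of them kept the sign and the adjusted p-value, and the difference passed for 52. Among all called without DEX, the difference toward 0 passed for 221 of the 1865 (11.8%) and 64 of the 1512 (4.23%).

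Spi1, which encodes the myeloid transcription factor PU.1, and the genes named downstream of it in the study were among the mRNAs raised in both settings. Spi1 (chr2:91082390-91115756, + strand, mm10) was measured at 40.9 to 74.8 CPM (median 52.3) in HDM.AIR.DEX libraries and 10.8 to 27.5 CPM (median 17.5) in PBS.AIR.DEX libraries, and no HDM library fell within the PBS range (log2FC 1.58 ± 0.18 (SE), adjusted p = 4.8e-12). Il1rn, the interleukin-1 receptor antagonist, stood at 55.8 to 130 CPM (median 102.6) in HDM.AIR.DEX libraries and 4.87 to 13.3 CPM (median 7.66) in PBS.AIR.DEX libraries (log2FC 3.60 ± 0.32 (SE), adjusted p = 5.2e-16). Ptafr, the receptor for platelet-activating factor, stood at 57.4 to 93.5 CPM (median 81.2) in HDM.AIR.DEX libraries and 11.2 to 17.99 CPM (median 14.4) in PBS.AIR.DEX libraries (log2FC 2.44 ± 0.15 (SE), adjusted p = 2.4e-23).

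All 10 HDM.AIR.DEX libraries lay above all PBS.AIR.DEX libraries for each of these genes, and the same held for the integrin Itgax and the beta-glucan receptor Clec7a. Itgax stood at 211 to 376 CPM (median 278) in HDM.AIR.DEX libraries and 29.2 to 76.7 CPM (median 48.2) in PBS.AIR.DEX libraries (log2FC 2.58 ± 0.26 (SE), adjusted p = 6.9e-14). Clec7a stood at 298 to 633 CPM (median 485) in HDM.AIR.DEX libraries and 51.3 to 158.8 CPM (median 87.5) in PBS.AIR.DEX libraries (log2FC 2.38 ± 0.25 (SE), adjusted p = 3.2e-13). Without DEX the log2FC was 1.70 for Spi1, 3.64 for Il1rn, 2.73 for Ptafr, 3.17 for Itgax and 3.37 for Clec7a, and for none of the 5 did the difference pass (adjusted p from 0.1 to 0.98). The list comes from the study, which worked on libraries of this series, so its direction is not independent evidence.

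The bases before the start sites of 2 of these genes are shown because they carry the core letters that PU.1 is known to bind, GAGGAA on either strand, given in capitals. They are the 250 bases upstream of the start site in RefSeq (GRCm38.p6), at chr4:132563817-132564066 on the + strand for Ptafr and chr6:129472780-129473029 on the - strand for Clec7a.
Ptafr: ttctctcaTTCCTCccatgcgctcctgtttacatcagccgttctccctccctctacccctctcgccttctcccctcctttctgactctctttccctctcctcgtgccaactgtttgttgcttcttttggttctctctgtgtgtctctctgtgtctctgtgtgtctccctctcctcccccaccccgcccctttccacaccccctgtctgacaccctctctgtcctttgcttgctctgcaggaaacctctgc
Clec7a: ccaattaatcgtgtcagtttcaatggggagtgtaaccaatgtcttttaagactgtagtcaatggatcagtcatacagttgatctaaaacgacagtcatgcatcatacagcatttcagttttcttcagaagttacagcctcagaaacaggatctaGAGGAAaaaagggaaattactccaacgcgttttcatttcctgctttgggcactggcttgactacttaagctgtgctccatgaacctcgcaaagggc
The match starts 242 bases before the start site in Ptafr and 96 bases before it in Clec7a. Of the 7 promoters listed for 4 genes of the set, 3 held the letters, and the 3 of Il1rn and the 1 of Itgax did not. Those of Clec7a overlap, as do 2 of Il1rn, so the 3 hold 2 distinct matches, in 2 of the 4 genes. The letters occurred in 23.3% of all 32851 promoters of this length, in 23% of the 16302 promoters of genes tested and in 34.2% of the 1019 promoters of genes called higher under DEX. The letters TTC and GAA with 4 bases of any kind between them, which STAT6 is known to bind, occurred in 5 of the 7 (3 distinct matches), in 5.85% of all promoters and in 7.16% of those of genes called higher, and did not overlap a GAGGAA match in the 7. The palindrome of the glucocorticoid receptor, AGAACA and TGTTCT with 3 bases of any kind between them, occurred in none of the 7 and in 0.00913% of all promoters. A match is a run of letters and was not tested as a site.

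**Figure D2:**
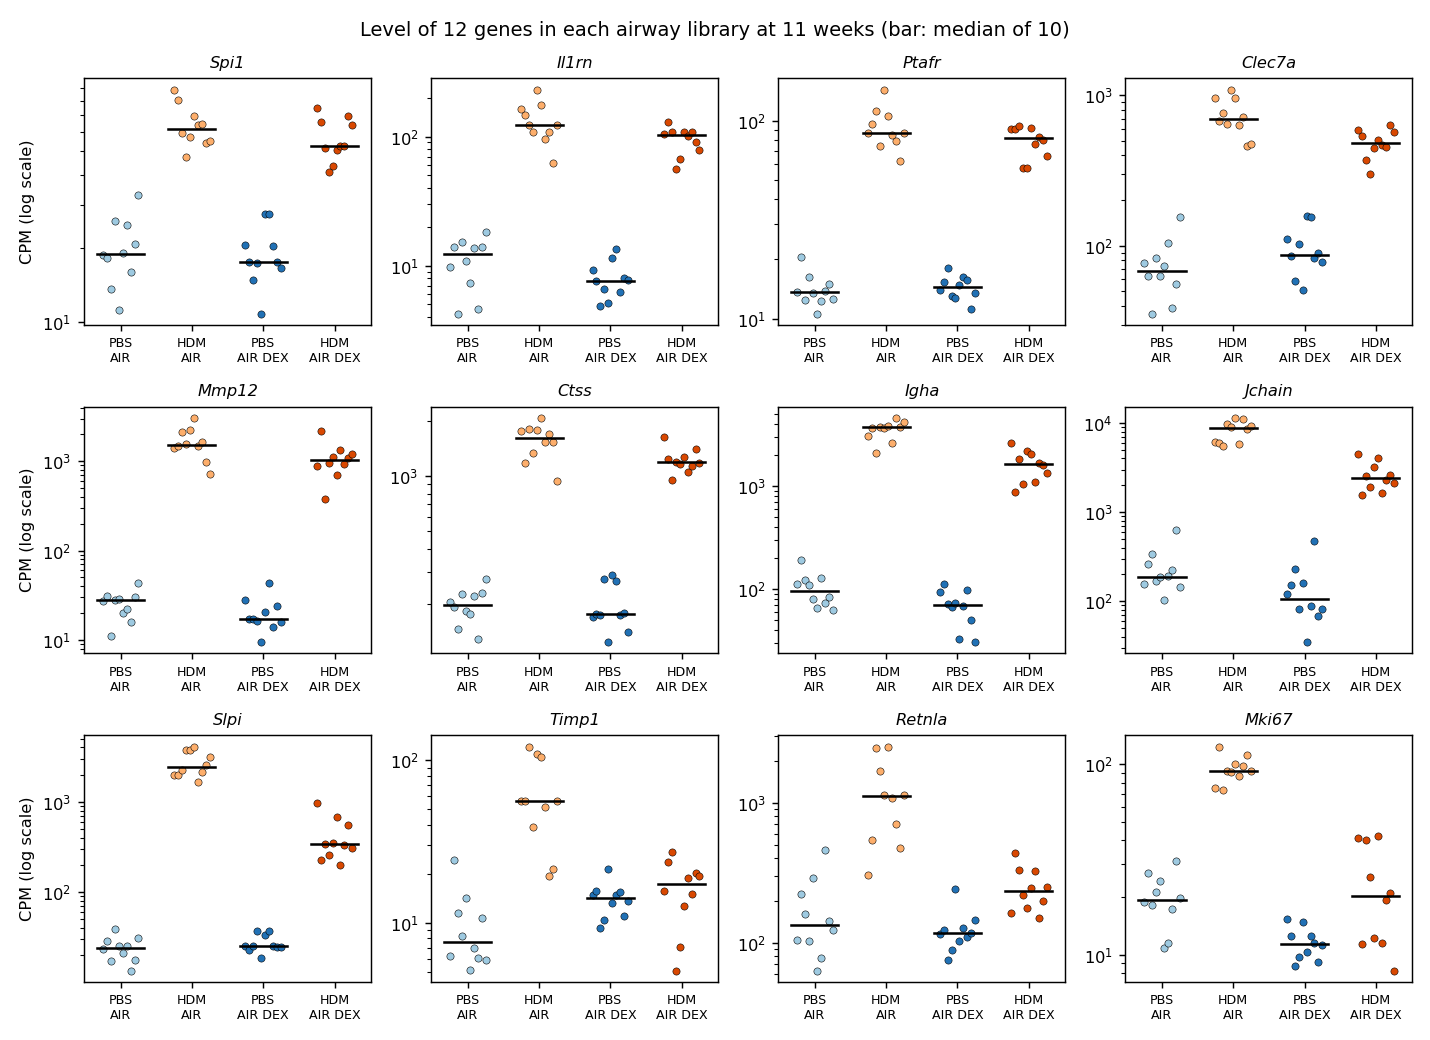
CPM on a log scale of 12 genes in each airway library at 11 weeks, with 10 libraries per group and a bar at the median. For Spi1, Il1rn, Ptafr, Clec7a, Mmp12, Ctss, Igha and Jchain the HDM libraries lie above the PBS libraries with and without DEX. Slpi, Timp1, Retnla and Mki67 sit lower in HDM.AIR.DEX than in HDM.AIR libraries, and they are not alone in this. The summed level of 4 plasma cell genes, Jchain among them, ranged from 1620.6 to 4639.7 CPM in HDM.AIR.DEX and from 5700 to 11756 CPM in HDM.AIR libraries.

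Macrophage genes with roles in tissue breakdown and in sensing microbial sugars were among the strongest risers. Mmp12, the macrophage elastase, stood at 374 to 2192 CPM (median 1025) in HDM.AIR.DEX libraries and 9.46 to 43.05 CPM (median 16.96) in PBS.AIR.DEX libraries, far apart (log2FC 5.72 ± 0.31 (SE), adjusted p = 2.7e-26, against 6.01 without DEX). The lysosomal protease Ctss stood at 949 to 1624 CPM (median 1188) in HDM.AIR.DEX libraries and 123.9 to 289 CPM (median 175.5) in PBS.AIR.DEX libraries (log2FC 2.68 ± 0.16 (SE), adjusted p = 5.1e-24), and the scavenger receptor Msr1 at 53.2 to 122.7 CPM (median 85.9) in HDM.AIR.DEX libraries and 11.1 to 20.5 CPM (median 15.3) in PBS.AIR.DEX libraries (log2FC 2.52 ± 0.20 (SE), adjusted p = 3e-18). Groups did not overlap for any of the 3. Of 10 genes of C-type lectin receptors and their signalling, 9 were called higher and 1 lower, with a median log2FC of 2.06 under DEX and 2.51 without. The receptors Clec4d (log2FC 3.13 ± 0.22 (SE), adjusted p = 1.2e-20) and Clec4n (2.31) rose, as did the kinase Syk (1.65) and the adaptor Fcer1g (2.13) that carry their signal. The member that fell was Cd209a, named here after its values were seen, with a log2FC of -1.64 under DEX and -0.73 without. Its relatives Cd209f (-3.59) and Cd209g (-3.54), together with the asialoglycoprotein receptor gene Asgr1, a further C-type lectin, were among the 8 largest falls without overlap. Asgr1 stood at 0.115 to 0.847 CPM (median 0.368) in HDM.AIR.DEX libraries and 4.07 to 14.3 CPM (median 6.11) in PBS.AIR.DEX libraries (log2FC -4.09 ± 0.31 (SE), adjusted p = 6.9e-19), and the log2FC was -4.31 without DEX. Scavenger receptor Cd163 and the lectin Mgl2, both found on resident macrophages, fell by 1.75 and 1.09 on the log2 scale. Of 7 interstitial macrophage markers 5 were higher and 2 lower, with a summed median of 571.9 CPM with HDM and 378.6 CPM with PBS, and of 7 alveolar macrophage markers 2 were higher and 1 lower. Of all genes 22.9% were higher and 24.6% lower at the same limit, so the alveolar macrophage counts say little about these markers. The Cd209 genes are close copies of each other, and reads shared between them leave their separate values uncertain.

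Antibody genes rose most. Of the 8 largest rises without overlap, 7 were immunoglobulin or unnamed genes, with Il17a the exception. Ighg1, the heavy chain of IgG1 (chr12:113325240-113330523), stood at 1438 to 10102 CPM (median 3669) in HDM.AIR.DEX libraries and 1.34 to 45.7 CPM (median 10.4) in PBS.AIR.DEX libraries (log2FC 8.58 ± 0.64 (SE), adjusted p = 2.3e-19). Igha, the heavy chain of IgA, stood at 877 to 2613 CPM (median 1629) in HDM.AIR.DEX libraries and 30.7 to 112.4 CPM (median 70.4) in PBS.AIR.DEX libraries (log2FC 4.57 ± 0.28 (SE), adjusted p = 2.4e-23), and Ighg2b at 14.3 to 474 CPM (median 170.6) in HDM.AIR.DEX libraries and 0.573 to 18.6 CPM (median 3.17) in PBS.AIR.DEX libraries (log2FC 5.49 ± 0.66 (SE), adjusted p = 8.1e-11). For Ighg1 and Igha the HDM and PBS libraries did not overlap, while Ighg2b overlapped slightly at 1 PBS library.

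All 8 heavy chain constant genes were called higher, together with Pigr, the receptor that carries IgA across the epithelium (1311 to 1949 CPM (median 1617) in HDM.AIR.DEX libraries and 277 to 684 CPM (median 384) in PBS.AIR.DEX libraries). The median log2FC of these 9 genes was 4.43 under DEX and 4.77 without. Ighe, the heavy chain of IgE, was near the limit of detection, at 0.0341 to 0.731 CPM (median 0.126) in HDM.AIR.DEX libraries and 0 to 1.96 CPM (median 0) in PBS.AIR.DEX libraries, with 1 PBS library above all HDM libraries. Its log2FC was 2.56 ± 0.88 (SE), adjusted p = 0.013 with limma-voom, but 0.45 (adjusted p = 0.66) with edgeR's quasi-likelihood test and 0.43 (adjusted p = 0.76) with DESeq2. The variable genes among the largest rises were Ighv1-82 (log2FC 7.49), Ighv1-62-2 (7.10), Ighv1-63 (6.90), Ighv2-6 (6.83) and Igkv12-98 (6.81), with medians in PBS libraries from 0 to 0.283 CPM. Variable genes are close copies, so which of them carried the reads is uncertain. The remaining riser, ENSMUSG00000057610.5, was matched to no symbol (6.67).

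Genes of the cells that make antibody rose with them. Of 16 B cell and plasma cell genes, 12 were called higher and all 16 passed the adjusted p-value, with a median log2FC of 1.67 (1.81 without DEX). In HDM mice 14 of the 16 were lower with DEX (median log2FC -1.23), against 15.0% of all genes at an adjusted p-value under 0.05. In PBS mice 7 were lower with DEX (median -0.87), against 5.78%. Jchain, which joins the units of IgA and IgM, stood at 1570 to 4432 CPM (median 2433) in HDM.AIR.DEX libraries and 34.9 to 478 CPM (median 105.2) in PBS.AIR.DEX libraries (log2FC 4.41 ± 0.37 (SE), adjusted p = 3.2e-17). The chaperone Mzb1 stood at 37.1 to 172.5 CPM (median 62.6) in HDM.AIR.DEX libraries and 2.22 to 18.4 CPM (median 5.42) in PBS.AIR.DEX libraries (log2FC 3.66 ± 0.36 (SE), adjusted p = 4.8e-14), and the B cell receptor regulator Cd22 at 62.4 to 102.4 CPM (median 78.9) in HDM.AIR.DEX libraries and 10.3 to 28.6 CPM (median 20.6) in PBS.AIR.DEX libraries (log2FC 1.98 ± 0.16 (SE), adjusted p = 3.1e-18). None of these overlapped between the groups. The effect was lower under DEX for the plasma cell factors Irf4 and Xbp1 of this list, named after their values were seen, and for Edem1, which clears misfolded protein from the endoplasmic reticulum. Edem1 stood at 156.3 to 272 CPM (median 184.9) in HDM.AIR.DEX libraries and 71.6 to 103.6 CPM (median 89.6) in PBS.AIR.DEX libraries and rose in both settings (log2FC 1.15 under DEX, 2.196 without, difference -1.04 ± 0.13 (SE), adjusted p = 4.5e-08).

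T cell genes rose in both settings. Of 17 genes of T cell activation and regulation, 15 were called higher and 17 passed the adjusted p-value, with a median log2FC of 1.91 under DEX and 1.72 without, and for none did the difference pass. In HDM mice 12 of the 17 were lower with DEX (median log2FC -0.91), against 15.0% of all genes at an adjusted p-value under 0.05. In PBS mice 7 were lower with DEX (median -1.05), against 5.78%. The checkpoint receptor Pdcd1 stood at 4.14 to 15.3 CPM (median 9.74) in HDM.AIR.DEX libraries and 0.267 to 2.06 CPM (median 0.675) in PBS.AIR.DEX libraries (log2FC 3.83 ± 0.31 (SE), adjusted p = 8.9e-18), Tigit at 1.10 to 5.94 CPM (median 2.61) in HDM.AIR.DEX libraries and 0.0937 to 0.696 CPM (median 0.234) in PBS.AIR.DEX libraries (log2FC 3.44 ± 0.43 (SE), adjusted p = 3.8e-10) and the costimulator Icos at 7.20 to 19.05 CPM (median 11.2) in HDM.AIR.DEX libraries and 1.24 to 6.11 CPM (median 2.001) in PBS.AIR.DEX libraries (log2FC 2.34 ± 0.28 (SE), adjusted p = 4e-11). HDM libraries lay above PBS libraries without overlap for all 3. The summed level of 6 T cell markers ranged from 57.02 to 175.9 CPM (median 114.9) with HDM and from 11.68 to 98.01 CPM (median 20.06) with PBS. Cytotoxic lymphocyte genes moved less with HDM, with 3 of 11 called higher, against 7.66% of all genes (median log2FC 0.59, against 0.01 without DEX). With DEX 11 of the 11 were lower in HDM mice and 10 in PBS mice (adjusted p < 0.05), against 15.0% and 5.78% of all genes. Gzmk (2.28) and Eomes (1.51) were the larger rises, and both were highest in HDM.AIR.DEX replicate X11.

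Genes of the IL-17 axis rose in both settings. Il17a (chr1:20730905-20734496) stood at 4.51 to 21.8 CPM (median 8.38) in HDM.AIR.DEX libraries and 0 to 0.363 CPM (median 0.0156) in PBS.AIR.DEX libraries, with all HDM libraries above all PBS libraries (log2FC 7.63 ± 0.89 (SE), adjusted p = 2.1e-11, against 7.64 without DEX, difference -0.01 ± 1.18 (SE), adjusted p = 1.0). Il21, a cytokine of helper T cells, stood at 0.592 to 3.91 CPM (median 1.37) in HDM.AIR.DEX libraries and 0 to 0.125 CPM (median 0.0151) in PBS.AIR.DEX libraries (log2FC 5.63 ± 0.74 (SE), adjusted p = 1.2e-09). Its groups did not overlap either. The receptor Il17ra stood at 50.04 to 75.1 CPM (median 57.1) in HDM.AIR.DEX libraries and 22.8 to 38.9 CPM (median 25.9) in PBS.AIR.DEX libraries (log2FC 1.04 ± 0.11 (SE), adjusted p = 6.7e-13).

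Of 16 neutrophil chemokine and IL-17 axis genes, 14 were called higher. By role these were 5 of 5 cytokines, 3 of 3 receptors, 4 of 5 chemokines and 2 of 3 targets. The median log2FC of the list was 1.5 under DEX and 2.42 without, and the difference passed for Lcn2 alone, an antibacterial protein of neutrophils and epithelium that IL-17 and glucocorticoids are both known to induce. Lcn2 stood at 1071 to 2545 CPM (median 1726) in HDM.AIR.DEX libraries and 159.6 to 492 CPM (median 271) in PBS.AIR.DEX libraries, without overlap (log2FC 2.65 ± 0.27 (SE), adjusted p = 1.4e-13), against 3.99 without DEX (difference -1.33 ± 0.37 (SE), adjusted p = 0.023). In PBS.AIR replicates X5, X25 and X45 it stood at 59.5, 50.09 and 128.8 CPM, below the PBS.AIR.DEX range. HDM.AIR replicates X9 and X29, at 2169 and 1982 CPM, lay within the HDM.AIR.DEX range. The other libraries without DEX are not given here. The summed level of 7 neutrophil markers ranged from 162.04 to 557 CPM (median 446.3) with HDM and from 101.5 to 287 CPM (median 186.6) with PBS. With the cardiac muscle and adipose level as a covariate, 8 of the 16 genes of the list were called higher. The median log2FC of the list with DEX was -0.46 in HDM mice and 0.36 in PBS mice. At an adjusted p-value under 0.05, 1 was higher and 5 lower in HDM mice, against 10.9% and 15.0% of all genes. In PBS mice 2 were higher and none lower, against 6.51% and 5.78%.

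**Figure D3:**
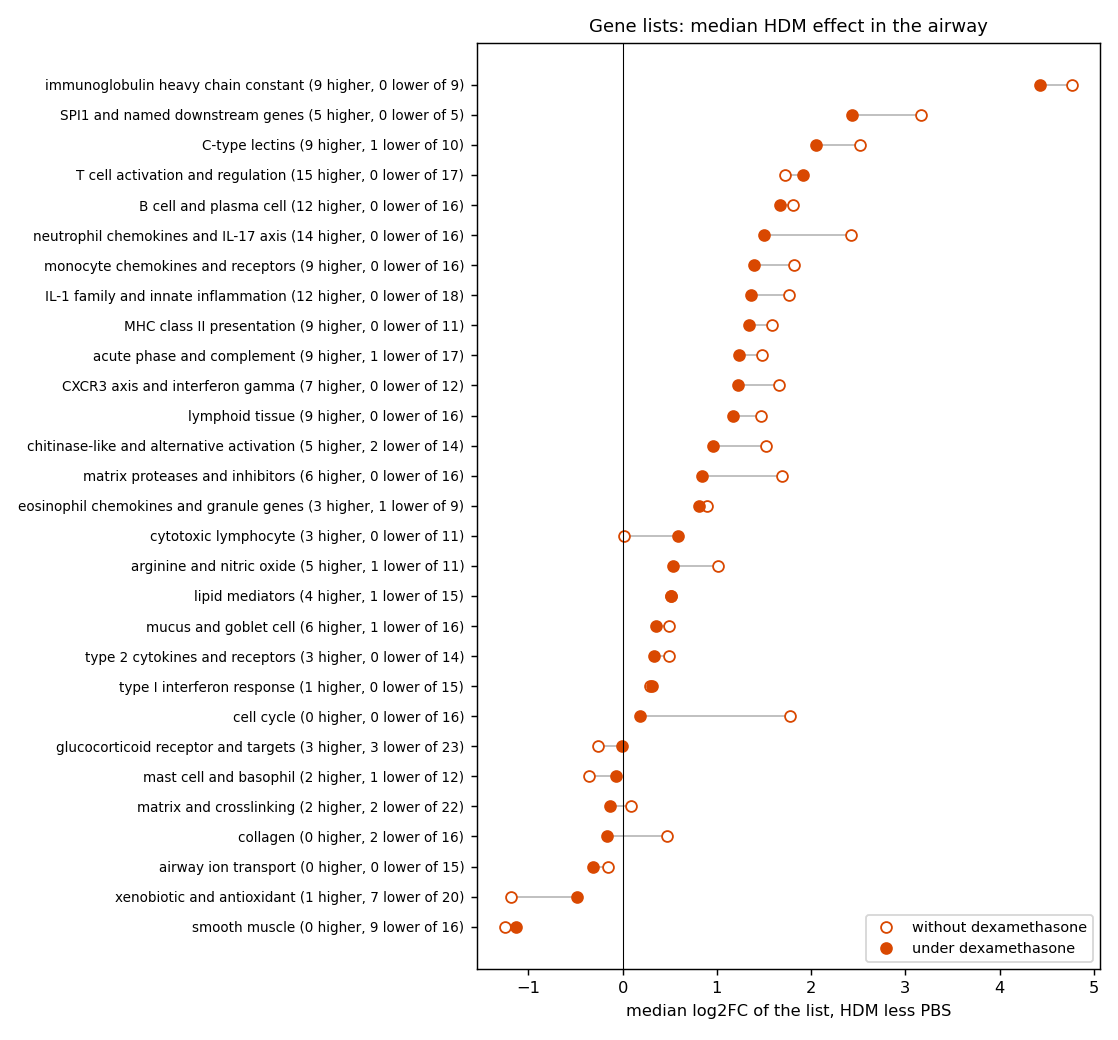
Median log2FC (HDM less PBS, airway) of 29 gene lists under DEX (filled) and without DEX (open), with the number of members called higher and lower under DEX of those tested. Antibody, SPI1, lectin and T cell lists lie far to the right in both settings, whereas the cell cycle list drops from 1.77 to 0.18.

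Chemokines of monocytes and of interferon-activated cells rose, as did antigen presentation. Of 16 monocyte chemokines and receptors 9 were called higher and none lower (median log2FC 1.4, 1.81 without DEX). Ccl3 stood at 16.2 to 32.8 CPM (median 23.3) in HDM.AIR.DEX libraries and 1.25 to 3.26 CPM (median 2.33) in PBS.AIR.DEX libraries (log2FC 3.34 ± 0.33 (SE), adjusted p = 2.9e-14), and its receptor Ccr1 (2.12) rose with it. Ccl9 stood at 104.3 to 254 CPM (median 179.8) in HDM.AIR.DEX libraries and 26.3 to 45.5 CPM (median 32.2) in PBS.AIR.DEX libraries (log2FC 2.33 ± 0.20 (SE), adjusted p = 1.3e-16). No library of either group crossed into the other for these 3 genes. Of 12 genes of the CXCR3 axis and interferon gamma 7 were called higher (median log2FC 1.23), against 10 without DEX (1.66). The difference passed for none of them. All 4 chemokines of the CXCR3 and CXCR6 receptors were called higher, and so were both receptors, with Cxcr6 at 21.2 to 65.3 CPM (median 41.5) in HDM.AIR.DEX libraries and 5.35 to 15.4 CPM (median 10.1) in PBS.AIR.DEX libraries (log2FC 2.15 ± 0.20 (SE), adjusted p = 7.9e-15) and Cxcr3 at 1.27. Of the 3 cytokines 1 was called higher and of the 3 targets none, against 2 and 2 without DEX. Of 11 genes of MHC class II presentation 9 were called higher (median log2FC 1.34, 1.59 without DEX). In HDM mice 11 of the 11 were lower with DEX (median log2FC -1.22), against 15.0% of all genes at an adjusted p-value under 0.05. In PBS mice 9 were lower with DEX (median -0.97), against 5.78%. Cd74, the chain that guides class II molecules, stood at 804 to 2988 CPM (median 1083) in HDM.AIR.DEX libraries and 295 to 464 CPM (median 394) in PBS.AIR.DEX libraries (log2FC 1.64 ± 0.13 (SE), adjusted p = 5.6e-18), with HDM.AIR.DEX replicate X11 far above the other libraries of its group. Of 15 type I interferon response genes 1 was called higher, Rsad2 (1.07), a share near the 7.66% of all genes, and the median log2FC was 0.31.

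Innate inflammation rose for 12 of 18 genes of the IL-1 list, among them the bacterial sensor Tlr2 at 53.2 to 98.9 CPM (median 72.6) in HDM.AIR.DEX libraries and 16.7 to 31.8 CPM (median 20.5) in PBS.AIR.DEX libraries (log2FC 1.71 ± 0.19 (SE), adjusted p = 2.5e-12), its partner Cd14 (1.27) and the inflammasome adaptor Pycard (1.59). The 3 antagonists of the list were all called higher. The effect was lower under DEX for Il6 and Nos2, named after their values were seen, and for none of the other 16 did the difference pass. Of 17 acute phase and complement genes, 9 were called higher and 1 lower, against 7.66% and 5.96% of all genes. Saa3, an acute phase protein made locally, stood at 88.6 to 999 CPM (median 321) in HDM.AIR.DEX libraries and 6.01 to 26.2 CPM (median 14.6) in PBS.AIR.DEX libraries (log2FC 4.73 ± 0.37 (SE), adjusted p = 2.4e-18, against 4.34 without DEX). Complement factor Cfb stood at 245 to 697 CPM (median 420.3) in HDM.AIR.DEX libraries and 47.2 to 135.02 CPM (median 72.7) in PBS.AIR.DEX libraries (log2FC 2.39 ± 0.22 (SE), adjusted p = 1.4e-15), and the receptor C3ar1 (2.29) and C1qb (1.53) rose too. None of the 4 overlapped between the groups. Lymphoid tissue genes were called higher for 9 of 16 members, including the B cell chemokine Cxcl13 (log2FC 1.25 ± 0.39 (SE), adjusted p = 0.0058), whose groups overlapped widely (14.7 to 299 CPM (median 33.8) in HDM.AIR.DEX libraries and 11.7 to 52.7 CPM (median 21.5) in PBS.AIR.DEX libraries). In the fit with the covariate 14 of these 16 were called higher. With DEX 15 of the 16 were lower in HDM mice (median log2FC -1.10), against 15.0% of all genes at an adjusted p-value under 0.05. In PBS mice 5 were lower with DEX (median -0.78), against 5.78%.

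Type 2 genes, the classical arm of allergic inflammation, rose in part. Of 14 type 2 cytokines and receptors tested, 3 were called higher, against 7.66% of all genes, and 5 passed in that direction. Il13 stood at 0.0334 to 0.356 CPM (median 0.128) in HDM.AIR.DEX libraries and 0 to 0.0364 CPM (median 0) in PBS.AIR.DEX libraries, with 9 of 10 HDM libraries past the highest PBS library, and the HDM mean was at least 1.35-fold higher than the level of 3 counts that no PBS library exceeded. The alarmin Il33 stood at 74.6 to 269 CPM (median 136.9) in HDM.AIR.DEX libraries and 52.6 to 102.9 CPM (median 68.1) in PBS.AIR.DEX libraries (log2FC 1.02 ± 0.18 (SE), adjusted p = 3.9e-06), and the receptor chain Crlf2 rose by 1.45. Il4 did not pass the test (log2FC 0.38 ± 0.39 (SE), adjusted p = 0.44), and Il5 was too low to be tested, at 0 to 0.192 CPM (median 0.0608) with HDM and 0.0546 to 0.320 CPM (median 0.198) with PBS. Among eosinophil genes, the granule protein Prg2 stood at 0.881 to 2.41 CPM (median 1.51) in HDM.AIR.DEX libraries and 0.0624 to 1.05 CPM (median 0.162) in PBS.AIR.DEX libraries (log2FC 2.79 ± 0.46 (SE), adjusted p = 5.1e-07), the chemokine Ccl5 rose by 3.02 and the ribonuclease Ear2 by 1.38. Ear2 is also among the 7 alveolar macrophage markers, so its rise cannot be assigned to eosinophils. Of 4 eosinophil markers tested 2 were higher and none lower, against 22.9% and 24.6% of all genes. The summed level of 5 such markers ranged from 8.36 to 28.8 CPM (median 15.4) with HDM and from 5.72 to 14.2 CPM (median 8.81) with PBS. The eotaxin Ccl11 did not pass (0.15 ± 0.40 (SE), adjusted p = 0.78). The eotaxin Ccl24 fell, from 0.829 to 4.93 CPM (median 2.85) with PBS to 0.153 to 1.10 CPM (median 0.657) with HDM (log2FC -2.04 ± 0.41 (SE), adjusted p = 2e-05).

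Goblet cell and chitinase-like genes were mixed. Of 16 mucus genes 6 were called higher and 1 lower, against 7.66% and 5.96% of all genes. The gel-forming mucin Muc5ac stood at 3.50 to 17.5 CPM (median 8.29) in HDM.AIR.DEX libraries and 1.42 to 6.54 CPM (median 2.88) in PBS.AIR.DEX libraries (log2FC 1.499 ± 0.53 (SE), adjusted p = 0.015), whereas Muc5b did not pass the test (-0.03 ± 0.29 (SE), adjusted p = 0.93). Clca1, a protease secreted with mucus, stood at 10.4 to 63.02 CPM (median 26.4) in HDM.AIR.DEX libraries and 0.0592 to 6.4 CPM (median 3.31) in PBS.AIR.DEX libraries without overlap (log2FC 4.03 ± 1.12 (SE), adjusted p = 0.002). With a filter of CPM of at least 10 in 9 libraries neither Muc5ac (adjusted p = 0.14) nor Clca1 (0.13) passed. The lectin Itln1 stood at 9.27 to 47.1 CPM (median 14.8) in HDM.AIR.DEX libraries and 0.385 to 3.03 CPM (median 1.16) in PBS.AIR.DEX libraries (log2FC 3.79 ± 0.54 (SE), adjusted p = 1.2e-08) and the anion exchanger Slc26a4 at 22.3 to 186.2 CPM (median 91.9) in HDM.AIR.DEX libraries and 6.88 to 18.8 CPM (median 11.6) in PBS.AIR.DEX libraries (log2FC 3.002 ± 0.34 (SE), adjusted p = 1.6e-11). Both were free of overlap. The trefoil factor Tff1 was at the level of 3 counts or below in all PBS libraries, and its HDM mean was at least 4.49-fold higher than that level. The goblet cell factor Spdef did not pass (0.17 ± 0.23 (SE), adjusted p = 0.59).

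Among 14 chitinase-like and alternative activation genes, 5 were called higher and 2 lower, against 7.66% and 5.96% of all genes. Chil3 (Ym1), secreted by macrophages, stood at 990.4 to 4705 CPM (median 2296) in HDM.AIR.DEX libraries and 212 to 1199 CPM (median 479.5) in PBS.AIR.DEX libraries (log2FC 2.16 ± 0.40 (SE), adjusted p = 5.8e-06), and Chil1 at 969 to 3636 CPM (median 2207) in HDM.AIR.DEX libraries and 519 to 1041 CPM (median 752) in PBS.AIR.DEX libraries (log2FC 1.53 ± 0.20 (SE), adjusted p = 1.3e-09). Chil4, a close copy of Chil3 with which it can share reads, did not pass (2.83 ± 1.27 (SE), adjusted p = 0.058) although it did in 6 alternatives, edgeR and DESeq2 among them. Arg1 stood at 1.80 to 12.8 CPM (median 4.31) in HDM.AIR.DEX libraries and 0.983 to 2.82 CPM (median 1.76) in PBS.AIR.DEX libraries (log2FC 1.48 ± 0.62 (SE), adjusted p = 0.044), with 9 of 10 HDM libraries above all PBS libraries. Its call was lost with the stricter filter (adjusted p = 0.33), with sample quality weights (0.067) and without any 1 of 12 libraries (up to 0.08). Retnla, which alternatively activated macrophages and epithelium secrete, showed a smaller effect under DEX. It stood at 149.5 to 439 CPM (median 233) in HDM.AIR.DEX libraries and 75.3 to 240.3 CPM (median 116.4) in PBS.AIR.DEX libraries with DEX, against 304 to 2521 CPM (median 1110) in HDM.AIR and 63.2 to 461 CPM (median 133.6) in PBS.AIR libraries (log2FC 0.99 and 2.75, difference -1.75 ± 0.39 (SE), adjusted p = 0.0023). Retnlb did not exceed 3 counts in any PBS library and did not pass under DEX (adjusted p = 0.26).

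Genes of cell division rose with HDM in mice without DEX and hardly in mice with it. Without DEX, 14 of 16 cell cycle genes were called higher with HDM, and under DEX none was (1 with edgeR or DESeq2). The median log2FC was 1.77 without and 0.18 under DEX, and the difference passed for 15 of the 16, all lower under DEX, against 3.11% of all genes. Mki67, a marker of dividing cells, stood at 8.24 to 41.97 CPM (median 20.3) in HDM.AIR.DEX libraries and 8.74 to 15.4 CPM (median 11.4) in PBS.AIR.DEX libraries, with overlap (log2FC 0.82 ± 0.25 (SE), adjusted p = 0.0049). Without DEX it stood at 73.7 to 124.05 CPM (median 92.3) in HDM.AIR and 10.8 to 30.9 CPM (median 19.4) in PBS.AIR libraries, without overlap (log2FC 2.30, difference -1.48 ± 0.33 (SE), adjusted p = 0.0024). Pcna, a clamp of replication, passed under DEX as well but at a small log2FC (0.24), and Aurkb, a mitotic kinase, did so in 6 alternatives only (log2FC 0.56 ± 0.24 (SE), adjusted p = 0.05 with limma-voom, against an adjusted p of 0.01 with edgeR's quasi-likelihood test). The DEX effects use the same libraries as the HDM effects, so they are given only side by side. DEX lowered all 16 cell cycle genes in HDM mice (median log2FC -2.16) and 8 in PBS mice (median -0.35). At the same adjusted p-value under 0.05, 15.0% and 5.78% of all genes were lower.

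**Figure D4:**
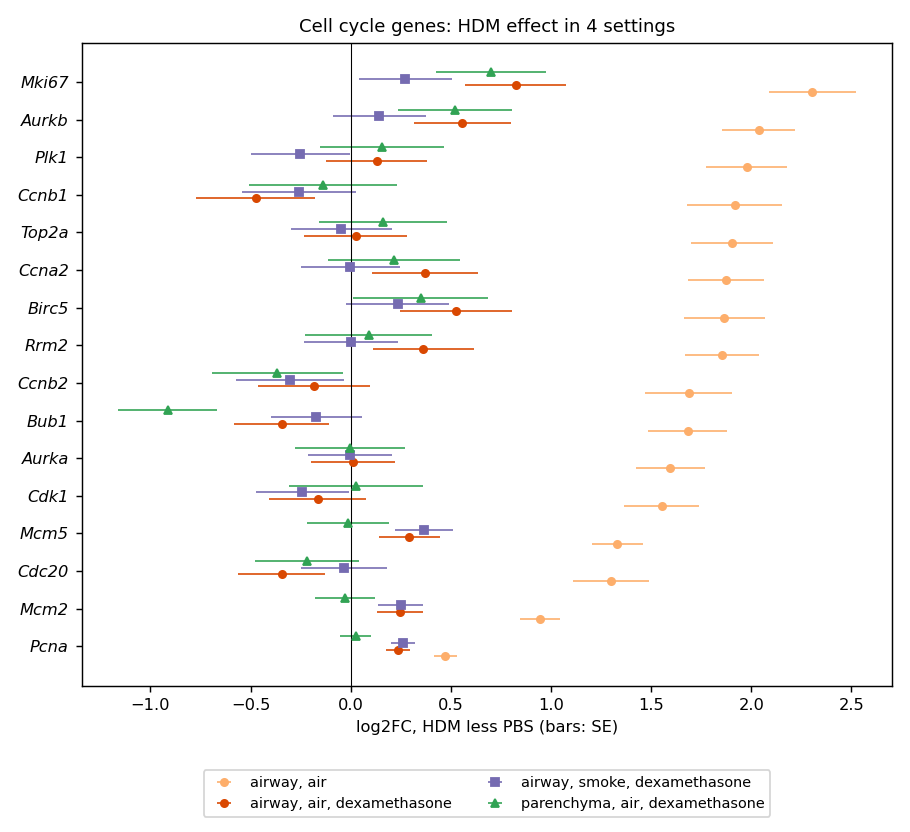
HDM effect (log2FC with SE bars) of 16 cell cycle genes in the airway without DEX, in the airway under DEX with air or with smoke, and in the parenchyma under DEX with air. The effects without DEX lie between 0.47 (Pcna) and 2.30 (Mki67), and the effects in the 3 settings with DEX lie between -0.91 (Bub1, parenchyma) and 0.82 (Mki67, airway with air).

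Genes of cell division were also among those with the smallest p-values for the difference. Stil, needed for building centrioles, stood at 0.231 to 1.09 CPM (median 0.532) in HDM.AIR.DEX libraries and 1.01 to 4.48 CPM (median 1.56) in PBS.AIR.DEX libraries and fell under DEX (log2FC -1.68 ± 0.27 (SE), adjusted p = 3.2e-07) but rose without it (0.92, difference -2.60 ± 0.34 (SE), adjusted p = 1.8e-07). Sgo2a, which protects chromosome cohesion, fell by 0.70 under DEX and rose by 0.97 without it (difference -1.68 ± 0.22 (SE), adjusted p = 1.8e-07). Mybl1, a transcription factor of germinal centre B cells and germ cells, stood at 1.94 to 4.94 CPM (median 3.69) in HDM.AIR.DEX libraries and 2.87 to 6.08 CPM (median 4.25) in PBS.AIR.DEX libraries with overlap (log2FC -0.26 ± 0.25 (SE), adjusted p = 0.41), against 2.14 without DEX (difference -2.40 ± 0.31 (SE), adjusted p = 1.8e-07). Cenpf, a kinetochore protein named after its values were seen, was the only gene called higher without DEX (1.30) and lower under it (-1.10).

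A group of genes fell more with HDM under DEX than without it. The difference passed for 11 genes called lower under DEX only, Cenpf among them, and for 2 called lower in both, Ccno and Itih2. Ccno, Mcidas and Cdc20b, which act in the differentiation of multiciliated cells, are neighbours on chromosome 13, where Ccno starts 6 kb before and Cdc20b 41.3 kb after the start of Mcidas. Mcidas (chr13:112993845-113000394, + strand) stood at 0.0385 to 0.394 CPM (median 0.243) in HDM.AIR.DEX libraries and 0.907 to 4.59 CPM (median 2.11) in PBS.AIR.DEX libraries, without overlap (log2FC -3.08 ± 0.36 (SE), adjusted p = 3.8e-11). Its level was 0.181 to 0.871 CPM (median 0.494) in HDM.AIR and 0.253 to 3.60 CPM (median 0.940) in PBS.AIR libraries (log2FC -0.73, difference -2.34 ± 0.49 (SE), adjusted p = 0.0011). Cdc20b stood at 0 to 0.273 CPM (median 0.0766) in HDM.AIR.DEX libraries and 0.438 to 2.38 CPM (median 0.895) in PBS.AIR.DEX libraries, again without overlap (log2FC -3.45 ± 0.46 (SE), adjusted p = 2.3e-09, against -0.21 without DEX, difference -3.23 ± 0.58 (SE), adjusted p = 0.00012). Ccno fell as well, with a log2FC of -2.06 under DEX and -1.02 without (difference adjusted p = 0.028).

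Of the other protein-coding neighbours tested, the difference did not pass for Dhx29, Gpx8 and Gzma (adjusted p = 0.22, 0.33 and 0.31). Foxn4, a further factor of multiciliated cells, fell by 2.22 under DEX and 0.76 without (difference adjusted p = 0.035). The other genes of this kind were Ccna1 (-1.21 and 0.50), Anln (-1.46 and -0.25), Ccdc18 (-1.08 and 0.44), Etv4 (-1.14 and 0.51), Fam3b (-1.17 and 0.60), Stil and Cd209a. Apart from Stil, Mcidas, Cdc20b and Itih2 these were named after their values were seen, and the difference did not pass in 3 alternatives for Ccno (adjusted p up to 0.12), 3 for Cd209a (up to 0.092), and 4 for Foxn4 (up to 0.11). Etv4 was no longer called under DEX with the covariate (adjusted p = 0.095). The HDM.AIR.DEX medians of Foxn4 (0.305 CPM) and Etv4 (0.218 CPM) were also below the equivalent of 10 counts. Between DEX groups and those without, Mcidas was higher with DEX in PBS mice (log2FC 1.16, adjusted p = 0.0016) and lower in HDM mice (-1.19, 0.026). The 8 markers of mature ciliated cells were all lower with HDM, with a median log2FC of -0.75 under DEX and -0.94 without, and for none did the difference pass. Their summed level ranged from 349.9 to 727.7 CPM with HDM and from 474.9 to 1212 CPM with PBS.

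Protease inhibitors showed the smallest p-value and some of the largest changes for the difference. Slpi, an inhibitor of neutrophil elastase (chr2:164354070-164389095, - strand), led by p-value. It stood at 200.2 to 967 CPM (median 339) in HDM.AIR.DEX libraries and 18.6 to 37.1 CPM (median 25.2) in PBS.AIR.DEX libraries, still without overlap (log2FC 3.79 ± 0.23 (SE), adjusted p = 3.5e-24). In HDM.AIR libraries it stood at 1672 to 4081 CPM (median 2397) and in PBS.AIR libraries at 13.6 to 39.1 CPM (median 24.2) (log2FC 6.82, difference -3.02 ± 0.35 (SE), adjusted p = 1.1e-08). Timp1, an inhibitor of matrix metalloproteases, was 5.08 to 27.4 CPM (median 17.3) in HDM.AIR.DEX libraries and 9.25 to 21.5 CPM (median 14.2) in PBS.AIR.DEX libraries and did not pass under DEX (log2FC 0.14 ± 0.35 (SE), adjusted p = 0.77). Without DEX it rose from 5.11 to 24.3 CPM (median 7.63) to 19.3 to 121.5 CPM (median 55.99) (log2FC 2.64, difference -2.50 ± 0.49 (SE), adjusted p = 0.00043). The membrane protease Mmp14 rose in both settings, by 1.16 under DEX and 1.73 without (difference -0.57 ± 0.12 (SE), adjusted p = 0.0018). For 5 of 16 genes of the protease list the effect was lower under DEX, the others being Mmp3 and Serpina3n, named after their values were seen. Mmp12 and Ctss showed no such difference (adjusted p = 0.81 and 0.55).

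None of 16 collagen genes was called higher under DEX, and 2 were called lower, Col12a1 (-1.46) and Col14a1 (-1.25), against 7.66% and 5.96% of all genes. With the covariate 1 was called lower. The median log2FC was -0.17, against 0.47 without DEX. Col1a1, the main fibrillar collagen, stood at 51.7 to 153.04 CPM (median 108.6) in HDM.AIR.DEX libraries and 75.95 to 152.3 CPM (median 101) in PBS.AIR.DEX libraries (log2FC -0.10 ± 0.17 (SE), adjusted p = 0.68), against 0.72 without DEX (difference -0.82 ± 0.25 (SE), adjusted p = 0.04). That difference did not pass in 5 alternatives (adjusted p up to 0.097). The effect was also lower for Col3a1, Col5a2 and Col4a1 and higher for Col8a1, named after their values were seen. Osteopontin, Spp1, rose to 78.3 to 264 CPM (median 164.9) from 14.7 to 40.6 CPM (median 18.1) (log2FC 3.02 ± 0.33 (SE), adjusted p = 1.4e-12), and the growth factor Tgfb1 rose by 1.19. The matrix proteins Fbln1 (-1.28) and Fbln2 (-1.51) fell. With the covariate no member of their list was called lower. Of 6 fibroblast markers 4 were lower with HDM, at a summed median of 637.2 CPM against 1327 CPM with PBS, and their part in these values was not tested.

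Contractile genes fell with and without DEX. Of 16 smooth muscle genes, 9 were called lower and 15 passed the adjusted p-value, with a median log2FC of -1.13 under DEX and -1.25 without. Myh11, the smooth muscle myosin heavy chain, had a lowest level of 59.05 CPM and a median of 80.1 CPM in HDM.AIR.DEX libraries, and stood at 81.2 to 494 CPM (median 259) in PBS.AIR.DEX libraries (log2FC -1.59 ± 0.27 (SE), adjusted p = 8.8e-07). The muscarinic receptor Chrm2 stood at 3.10 to 27.9 CPM (median 11.1) in HDM.AIR.DEX libraries and 13.2 to 95.8 CPM (median 51.1) in PBS.AIR.DEX libraries (log2FC -2.08 ± 0.37 (SE), adjusted p = 2.5e-06), and Smtn (-0.92) and Cald1 (-0.48) fell less. The groups overlapped for Myh11 and Chrm2. The cardiac muscle and adipose levels given above moved with these genes, and with them as a covariate none of the 16 was called lower.

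**Figure D5:**
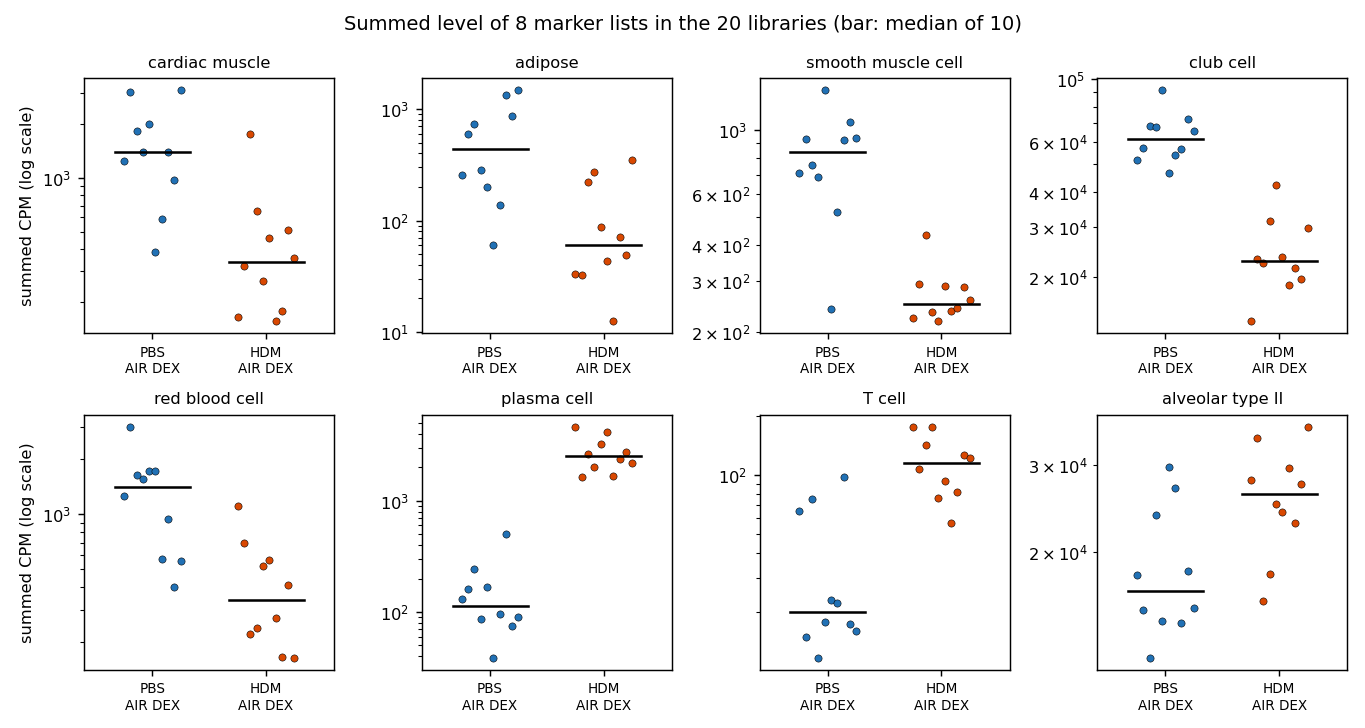
Summed CPM on a log scale of 8 marker lists in the 20 libraries, with 10 libraries per group and a bar at the median. Cardiac muscle, adipose, smooth muscle and red blood cell levels were lower with HDM and overlapped between groups, club cell levels were lower and plasma cell levels higher without overlap.

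Genes of club cells, which detoxify inhaled chemicals, fell. Cyp2f2, a cytochrome P450 of these cells, stood at 819 to 1722 CPM (median 1154) in HDM.AIR.DEX libraries and 2630 to 5679 CPM (median 3432) in PBS.AIR.DEX libraries, without overlap (log2FC -1.61 ± 0.13 (SE), adjusted p = 1.9e-17, against -2.14 without DEX). The aldehyde dehydrogenase Aldh1a1 stood at 559 to 1399 CPM (median 726) in HDM.AIR.DEX libraries and 1427 to 2327 CPM (median 1933) in PBS.AIR.DEX libraries (log2FC -1.25 ± 0.17 (SE), adjusted p = 5.8e-09). Of 20 xenobiotic and antioxidant genes 7 were called lower and 1 higher, Hmox1, which breaks down haem (71.5 to 147.7 CPM (median 109.5) in HDM.AIR.DEX libraries and 29.8 to 49.2 CPM (median 34.02) in PBS.AIR.DEX libraries, log2FC 1.52 ± 0.20 (SE), adjusted p = 9e-10). The median log2FC of the list was -0.48 under DEX and -1.19 without. For the glutathione transferase Gstm1 the fall was smaller under DEX, at 237 to 427 CPM (median 339) in HDM.AIR.DEX libraries and 409.7 to 621 CPM (median 487) in PBS.AIR.DEX libraries (log2FC -0.56, against -1.49 without DEX, difference 0.93 ± 0.14 (SE), adjusted p = 7.3e-06). Other genes with a smaller fall under DEX were the transcription factors Klf15 (difference 1.22 ± 0.22 (SE), adjusted p = 0.00014) and Hes1 (difference 0.62 ± 0.11 (SE), adjusted p = 0.00012) and the growth factor binding protein Fgfbp1 (difference 1.01 ± 0.19 (SE), adjusted p = 0.00022).

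Of 15 transport genes of the airway surface none was called, against 7.66% of all genes higher and 5.96% lower, and 1 was called lower with the covariate. The chloride channel Ano1 stood at 71.02 to 91.8 CPM (median 77.98) in HDM.AIR.DEX libraries and 93.9 to 120 CPM (median 106.8) in PBS.AIR.DEX libraries and fell under DEX (log2FC -0.43) but not without (0.07, difference -0.49 ± 0.10 (SE), adjusted p = 0.0013). The sodium channel subunit Scnn1b (-0.68) and the bicarbonate transporter Slc4a4 (-0.91) fell by less than the fold threshold. In arginine metabolism 5 of 11 genes were called higher and 1 lower, against the same shares of all genes. The lower call was lost with the stricter filter, with only the libraries compared and with the covariate. Arg2 stood at 35.4 to 51.7 CPM (median 46.3) in HDM.AIR.DEX libraries and 9.56 to 22.4 CPM (median 12.5) in PBS.AIR.DEX libraries (log2FC 1.67 ± 0.19 (SE), adjusted p = 1.2e-11) and the arginine transporter Slc7a2 at 1.53. Its relative Slc7a7 rose by 0.54 under DEX and 1.01 without (difference -0.48 ± 0.11 (SE), adjusted p = 0.0025). Lipid mediator genes were called higher for 4 of 15 members and lower for 1, against 7.66% and 5.96% of all genes. That lower call was lost with the stricter filter and with the covariate. The log2FC of the leukotriene helper Alox5ap was 1.33, with thromboxane synthase Tbxas1 at 1.89, prostaglandin D synthase Hpgds at 1.398 and the leukotriene B4 receptor Ltb4r1 at 1.2. Mast cell proteases went both ways, with Mcpt1 at 1.28 to 10.46 CPM (median 5.25) in HDM.AIR.DEX libraries and 0.109 to 0.732 CPM (median 0.298) in PBS.AIR.DEX libraries (log2FC 4.02 ± 0.61 (SE), adjusted p = 8.4e-08), Mcpt2 at 2.22 and Mcpt4 at -1.87. Mcpt4 and the ribonuclease gene Ear2 were no longer called with the covariate.

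A few genes responded more strongly under DEX. Among the 120 mRNAs called higher under DEX only, the difference passed for 3, named after their values were seen. They were the metallothionein Mt3 (1.79 to 7.31 CPM (median 2.30) in HDM.AIR.DEX libraries and 0.0889 to 1.31 CPM (median 0.522) in PBS.AIR.DEX libraries, log2FC 2.57 against 0.20, difference 2.37 ± 0.57 (SE), adjusted p = 0.006), the haem exporter Flvcr1 (1.41 against 0.85) and the natural killer receptor Klra10 (3.09 against 0.47), a member of a family of close copies. Ctsl, a lysosomal protease, was called higher in both settings with a larger effect under DEX (2.01 against 1.41, difference 0.59 ± 0.17 (SE), adjusted p = 0.021). The differences of Klra10 and Ctsl did not pass with edgeR's quasi-likelihood test (adjusted p = 0.068 and 0.057), nor did that of Ctsl with sample quality weights (0.098). Klra10 was near the floor, at 0.158 to 0.651 CPM (median 0.345) in HDM.AIR.DEX and 0 to 0.164 CPM (median 0) in PBS.AIR.DEX libraries. The size of its fold is therefore uncertain.

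The steroid label was checked against genes that DEX is known to induce. In PBS mice, DEX groups differed from those without DEX at 1172 genes higher (6.51%) and 1042 lower (5.78%), and in HDM mice at 1970 higher (10.9%) and 2702 lower (15.0%), at an adjusted p-value under 0.05. Fkbp5, Tsc22d3, Per1 and Zbtb16 were not higher with DEX in either arm. In PBS mice the log2FC with DEX was -0.02 for Fkbp5 (adjusted p = 0.96), -1.07 for Tsc22d3 (0.00058), -0.98 for Per1 (0.018) and -1.09 for Zbtb16 (0.035), so 3 of the 4 were lower. In HDM mice the values in the same order were 0.02, -0.17, -0.44 and -0.25, and none passed (adjusted p from 0.32 to 0.95). These 4 do not stand for the whole list of 23 genes of the receptor and its targets. In HDM mice 7 of the 23 were higher and 1 lower with DEX at an adjusted p-value under 0.05 (median log2FC 0.24). In PBS mice 1 was higher and 3 were lower (median 0.03). The shares of all genes are those given above. The time between the last dose and the collection of tissue was not given in the sources used here, and its part in these values was not tested. Red blood cell genes were lower with DEX in both arms, with a median log2FC of -2.40 in HDM and -2.39 in PBS mice over 5 genes. The 5 were also lower with HDM under DEX, at a summed level from 163.3 to 1110 CPM against 399.1 to 3007 CPM.

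Between HDM and PBS mice under DEX, 3 of the 23 genes of the receptor and its targets were called higher and 3 lower, against 7.66% and 5.96% of all genes. The receptor gene Nr3c1 stood at 137.7 to 188.8 CPM (median 153.2) in HDM.AIR.DEX libraries and 167.6 to 218 CPM (median 181.3) in PBS.AIR.DEX libraries (log2FC -0.22 ± 0.07 (SE), adjusted p = 0.01). Fkbp5 (0.32 ± 0.22 (SE), adjusted p = 0.22), Tsc22d3 (0.21), Per1 (-0.06) and Zbtb16 (-0.66) did not pass. Sgk1, a kinase that steroids induce, stood at 202.1 to 327 CPM (median 268) in HDM.AIR.DEX libraries and 82.6 to 169.9 CPM (median 118.8) in PBS.AIR.DEX libraries and was higher with HDM (log2FC 1.12 ± 0.14 (SE), adjusted p = 1.9e-10), as was Hsd11b2, which inactivates cortisol (1.75).

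Smoke-exposed mice under DEX showed fewer calls. HDM.CS.DEX against PBS.CS.DEX airways gave 787 mRNAs called higher (4.37%) and 297 lower (1.65%). Of the 1380 raised with air, 721 (52.2%) were also raised with smoke, which was 91.6% of the 787, and of the 1073 lowered 253 (23.6%) were shared, or 85.2% of the 297. The effect with air was higher for 370 genes of all tested (2.05%) and lower for 140 (0.777%). The genes with the smallest p-values were Vnn1, an enzyme that frees cysteamine (log2FC 2.86 with air and -0.03 with smoke, difference 2.89 ± 0.36 (SE), adjusted p = 7.2e-08), Lemd1 (3.08 and 0.57, difference 2.51 ± 0.30 (SE), adjusted p = 3e-08) and Pigr (1.998 and 0.58, difference 1.42 ± 0.19 (SE), adjusted p = 1.1e-06). Lower effects with air were led by Itih2 (-2.69 and -1.07), the cadherin Cdh13 (-1.62 and -0.53) and the uroplakin Upk1a (-1.67 and -0.27), all of which fell more with air.

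In the parenchyma of mice with the same exposures, 1558 of 18250 genes were called higher (8.54%) and 398 lower (2.18%). Over the genes tested in both, 1075 of the 1380 raised in the airway (77.9%) were raised in the parenchyma, or 70.8% of its 1518. Of the 1066 lowered in the airway, 211 (19.8%) were lowered there too, or 56.4% of its 374, and 15 genes were called in opposite directions. The labels do not say which airway and parenchyma came from the same mouse, and the libraries were treated as independent. The effect was higher in the airway for 613 genes (3.36%) and lower for 1584 (8.68%). The GTPases Gimap4 (log2FC 0.23 in airways, -0.58 in parenchyma) and Gimap5 (0.22 and -0.53) and C130074G19Rik (-0.13 and -0.95) led those higher in the airway. None of the 3 passed in the airway, and all fell in the parenchyma. The cation channel Trpv4 (0.34 and 2.17), the secreted protein Ccdc80 (-0.08 and 1.70) and Pigr (1.998 and 3.46) led those lower in the airway.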

How the data were processed

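RNA-seq was done by the authors on airways and parenchyma of female Balb/C mice (100 bp single reads), 203 libraries in all. The deposited table holds estimated counts per gene that the authors made from the reads. Per the submitters' processing notes the tools were bcl2fastq 2.20.0.422, STAR 2.5.1b, RSEM 1.2.31 and kallisto 0.44.0 with genome build mm10. Which of them gave the deposited counts, and whether strand was used, is not given in the sources used here. As 20.3% of the values above 0 had decimals, the table was rounded to whole numbers. Of 43346 gene identifiers, 42462 matched GENCODE M21 without their version. Reads from close copies (immunoglobulin variable genes, Chil3 and Chil4, the Klra and Cd209 families) can be split between them, so their separate values are uncertain. A few genes are not reported here.

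Groups were taken from the sample titles. The 80 airway libraries at 11 weeks were fitted together with limma-voom (limma 3.58.1, edgeR 4.0.16 for TMM, R 4.3.3), with 1 mean per group and contrasts between means, on 18015 genes with a CPM equivalent to 10 counts (0.34) in at least 9 libraries. The parenchyma comparison used 160 libraries and 18250 genes. Adjusted p-values are Benjamini-Hochberg values from this model over all genes tested. Calls needed an adjusted p-value under 0.05 and an absolute log2FC of 1 or more. A level of 3 counts was taken as the floor, and ranges of CPM cover counting error only in part. No 2 libraries of a group agreed within sampling noise (chi-square per gene of the closest pairs 14.8 to 37.7), so none was taken as a copy of another. All were counted as separate samples. This check cannot tell whether 2 libraries came from 1 mouse, since separate preparations would also differ by more than sampling noise. The scripts were tested on simulated data. RefSeq gave the promoter sequences (GRCm38.p6).

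Named genes were the 8 largest rises and falls without overlap between groups, the members of each list with the smallest p-values, the genes with the smallest p-values for each difference, and genes that define an arm of the response. The contrast and the gene lists were chosen with earlier results of these data known. The alternatives tried were DESeq2 1.42.0, the edgeR quasi-likelihood test, DESeq2 size factors in limma-voom, a stricter filter (CPM of 10 or more in 9 libraries), no filter, only the libraries of the groups compared, all 160 libraries, sample quality weights and leaving out each library. A fit with the summed cardiac muscle and adipose level as a covariate was added after seeing the data, as were fits with sets of 20 library codes or adjoining codes as a block.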

Additional observations from a re-analysis of the deposited data

Results flagged for a closer look

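Of 342 groups of 10 values, 22 held a library that lay further from the next than Dixon's 95% critical value for 10 values allows. Chance gives about 1 in 20. HDM.AIR.DEX replicate X11 was highest for the antigen presentation genes Cd74 (2988 CPM), H2-DMa (137.2 CPM) and H2-DMb1 (91.8 CPM) and for the lymphocyte genes Eomes (6.0 CPM) and Gzmk (3.79 CPM), and lowest for Syde2 (13.7 CPM). HDM.AIR.DEX replicate X151 was highest for the steroid target Fkbp5 (77.3 CPM) and for Tff1 (1.47 CPM) and lowest for Lemd1 (6.61 CPM). In the same group, replicate X191 was highest for Il13 (0.356 CPM), X111 lowest for Sgo2a (1.23 CPM) and X91 lowest for Stat6 (120.6 CPM).

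PBS.AIR.DEX replicate X67 was highest for the plasma cell gene Derl3 (3.27 CPM), for Ighe (1.96 CPM) and for the eosinophil gene Prg2 (1.055 CPM). Replicate X147 was highest for Ighv1-82 (1.03 CPM) and Il17a (0.363 CPM), X47 for Ighv1-62-2 (0.446 CPM), X87 for Il21 (0.125 CPM) and X187 for Itih2 (22.8 CPM). Replicate X27 was lowest for Chrm2 (13.2 CPM) and X127 for Upk1a (0.869 CPM).

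The effect of HDM under DEX less that without DEX, in log2 units, passed the test for the interaction in these named genes. It was negative for cell division genes, at -1.48 for both Aurkb and Mki67, -0.7 for Mcm2, -1.68 for Sgo2a, -2.6 for Stil, -1.21 for Anln, -1.52 for Ccdc18, -1.72 for Ccna1 and -2.4 for both Cenpf and Mybl1. It was negative for genes of multiciliated cells, at -3.23 for Cdc20b, -2.34 for Mcidas, -1.05 for Ccno and -1.46 for Foxn4. It was negative for secreted proteins and matrix genes, at -3.02 for Slpi, -2.5 for Timp1, -1.75 for Retnla, -1.33 for Lcn2, -0.82 for Col1a1, -0.57 for Mmp14, -1.2 for Itih2 and -1.77 for Fam3b. The remaining negative values were -1.04 for Edem1, -0.91 for Cd209a, -1.65 for Etv4, -0.49 for Ano1 and -0.48 for Slc7a7. It was positive for Mt3 (2.37), Klra10 (2.62), Flvcr1 (0.55), Ctsl (0.59), Fgfbp1 (1.01), Gstm1 (0.93), Hes1 (0.62), Klf15 (1.22), Syde2 (0.62) and Upk1a (1.0).

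The effect with air less that with smoke, both under DEX, was 2.89 for Vnn1, 2.51 for Lemd1, 1.42 for Pigr, -1.62 for Itih2, -1.41 for Upk1a and -1.09 for Cdh13. The effect in the airway less that in the parenchyma was 0.81 for C130074G19Rik and for Gimap4, 0.74 for Gimap5, -1.83 for Trpv4, -1.78 for Ccdc80 and -1.46 for Pigr.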

How the results depend on the processing

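Precision was limited by 10 libraries per group and by neighbouring tissue whose markers moved with HDM. It was also limited by mRNAs near the floor of 3 counts (Il13, Tff1, Retnlb and, by their levels, Ighe, Cdc20b, Mcidas and Klra10). The cause of the changes below was not tested, except that the stricter filter tests fewer genes. Shares are of the genes tested in each fit.

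The filter of CPM of 10 or more in 9 libraries gave 745 genes called higher (6.23% of 11960) and 338 lower (2.83%) under DEX, against 1380 and 1073. Without DEX it gave 940 (7.86%) and 622 (5.2%), and 370 genes (3.09%) had a lower effect under DEX. Calls for DEX were 29 (0.242%) and 338 (2.83%) in HDM mice, where all genes gave 97 and 867, and 25 (0.209%) and 0.978% in PBS mice, where all genes gave 86 and 289 (1.6%). The same filter gave 366 (3.06%) and 85 (0.711%) with smoke, 733 (6.01%) and 1.3% in the parenchyma, 866 genes (7.11%) with a lower effect in the airway than the parenchyma, and 695 higher and 298 lower in both DEX settings. DESeq2 gave 323 genes (1.79%) with a higher effect under DEX and 150 (0.833%) called higher with DEX in HDM mice, and no filter gave 0.554% for the latter. With only the libraries compared, 967 genes (5.62%) had a higher effect in the airway than the parenchyma, and with all 160 libraries 237 (1.3%) had a lower effect with air than smoke. Quality weights gave 566 genes (3.14%) with a higher effect under DEX, and 1716 (9.4%) with a higher and 2565 (14.1%) with a lower effect in the airway than the parenchyma. The covariate gave 502 genes (2.79%) called lower under DEX, 561 (3.11%) with a higher and 864 (4.8%) with a lower effect under DEX, 0.91% called higher with DEX in HDM mice, 150 (0.833%) called lower with smoke, 314 (1.74%) with a lower effect with air than smoke, 382 called lower in both DEX settings (37.8% of those without DEX) and 14 list members called lower in place of 31.

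Groups share no replicate numbers, but the library codes fall into 10 sets of 20 with 1 library of each group at 11 weeks, and adjoining codes hold the airway and the parenchyma of the same group. Set mates of HDM.AIR.DEX and PBS.AIR.DEX deviated from their group means with correlations from -0.17 to 0.497 (9 of 10 over 0.1, and 6 highest with their own set), and adjoining libraries from 0.132 to 0.528 in HDM.AIR.DEX and from 0.00927 to 0.415 in PBS.AIR.DEX. The codes thus hint at shared origin, which the labels do not state. Both blocks were chosen after seeing the data. With the set as a replicate block, 379 genes (2.1%) had a higher and 857 (4.76%) a lower effect under DEX, 478 (2.65%) were called lower with smoke, 630 (3.5%) had a higher and 290 (1.61%) a lower effect with air than smoke, and 1042 (5.71%) a higher effect in the airway than the parenchyma. With adjoining codes as a block, 1807 genes (9.9%) had a higher and 2589 (14.2%) a lower effect in the airway. Of the named genes, no call was lost under the set block, and Mcm2, Aurkb and Chil4 passed under it. The block by adjoining codes was fitted only for the parenchyma and its difference from the airway. Of the named genes it covered only the 6 chosen for that difference, which still passed, and airway calls were not tested under it.

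Over the libraries left out one at a time, the calls under DEX ranged from 7.4% to 7.98% higher and from 5.42% to 6.94% lower, and without DEX from 10.1% to 10.6% and from 8.01% to 8.99%. Genes with a higher effect under DEX ranged from 0.644% (without HDM.AIR.DEX replicate X31) to 1.54% (without PBS.AIR.DEX replicate X167), and those with a lower effect from 2.12% to 3.59%. Genes called in both settings ranged from 1222 to 1286 higher (65.6% to 70.4%) and from 817 to 988 lower (51.9% to 65.2%).

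Of single genes, log2FC changed sign for Ccl11 with quality weights (-0.063), and with the covariate for Col1a1 (0.15), Per1 (0.107), Ccdc80 (0.201), Mybl1 (0.221) and Muc5b (0.637). None of these passed under that setting. With a library left out, Muc5b ranged from -0.193 to 0.101, Per1 from -0.209 to 0.15, Col1a1 from -0.16 to 0.015 and Ccl11 from -0.031 to 0.251. Of 3619 gene values, 3563 kept both their sign and their side of the test. A further 15 changed sign, 23 no longer passed and 18 passed only with a library left out.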
